A study of Mus musculus with 6 samples.

Results

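The genes described here are granzymes, perforin and other genes of the cytotoxic granule and its receptors, measured by RNA-seq in WT and RORγtN275D Th17 cells. They were chosen by name as a list of 10 genes (Gzma, Gzmb, Gzmc, Gzmk, Prf1, Srgn, Nkg7, Ctsw, Klrd1 and Klrk1), of which 9 were found among the 16244 genes analysed. Gzmk was not analysed here. Naive CD4+ T cells from WT mice and from mice with the RORγtN275D knockin, all C57BL/6, were cultured for 3 days with anti-CD3 and anti-CD28 under pathogenic Th17 conditions, in which IL-6, IL-1β and IL-23 were present, and 3 libraries were analysed for each genotype. According to the methods, mice were 6 to 12 weeks old unless stated otherwise, both sexes were used, and further culture additions were TGF-β and antibodies against IL-4 and IFN-γ. RORγt is the transcription factor that defines Th17 cells, and N275D is an amino acid change in that protein. WT mice and knockin mice came from different sources according to the methods, so that genotype and the source of the mice cannot be told apart. Whether the knockin mice were homozygous is not stated for the RNA-seq. The labels do not say whether the 3 libraries of a genotype came from separate mice or cultures, and the p-values therefore measure only the spread between these libraries. The mutation itself cannot be checked from expression levels per gene.

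Cytotoxic lymphocytes kill by releasing granules at the contact with a target cell. Perforin opens the target membrane, granzymes are serine proteases that enter and cleave intracellular proteins, and serglycin is the proteoglycan core on which both are stored. NK receptors of the lectin-like family, such as CD94 (Klrd1) and NKG2D (Klrk1), set the threshold for release in natural killer cells and in some T cells. In CD4+ T cells, granzymes and perforin are a minor and inducible programme that depends on cytokines and on T-box and Runx transcription factors.

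The cultures had the profile of Th17 cells. The Th17 identity genes Rora, Il17a, Il17f, Il23r and Ccr6 were expressed, and these 5 were called higher in RORγtN275D cells. All 6 T cell identity genes (Cd3d, Cd3e, Cd3g, Cd4, Cd28 and Lck) were expressed too, and their summed level was 26712 to 27290 normalized reads in WT and 24245 to 24874 in RORγtN275D libraries, with 1 gene called higher, 3 lower and 2 not called. A normalized read is a read assigned to a gene, multiplied by 1 scaling factor per library. The factors, inferred from the steps between the deposited values, were 0.982 to 1.009, and the values divided by them summed to 17659035 to 18510878 per library.

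Most of the cytotoxic genes were higher in RORγtN275D cells. With limma on log2(normalized reads + 1), a scale that understates the fold changes of low genes, 7 of the 9 members were higher in RORγtN275D than in WT Th17 cells at an adjusted p under 0.05, none was lower, and Nkg7 and Ctsw did not pass. Over all 11908 genes tested, those with a mean of at least 10 normalized reads, 50.9% were called in either direction, 24.7% higher and 26.1% lower in RORγtN275D cells. All 9 log2 fold changes were positive, from 0.09 for Ctsw to 1.01 for Prf1, with a median of 0.37 beside -0.0026 over all genes tested, and that of Ctsw alone turned negative with quantile normalization (-0.093). Of the members, 1 passed at 2-fold, whereas 2.73% of all genes were called at least 2-fold higher and 0.857% at least 2-fold lower. In the same 7 members the 3 RORγtN275D libraries all lay above the 3 WT libraries, which was the case for 28.1% of all genes tested, the reverse order being found in 29.6%. Of these 7, Gzma had a WT mean of 8.98, under the filter of 10. It was tested only through its RORγtN275D libraries, so that its direction adds little to either count. The members were not a random draw, and no test of the list as a whole was made. In bulk RNA, more cells that carry a transcript and more transcript in each cell cannot be told apart, and this holds for each value that follows.

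**Figure D1:**
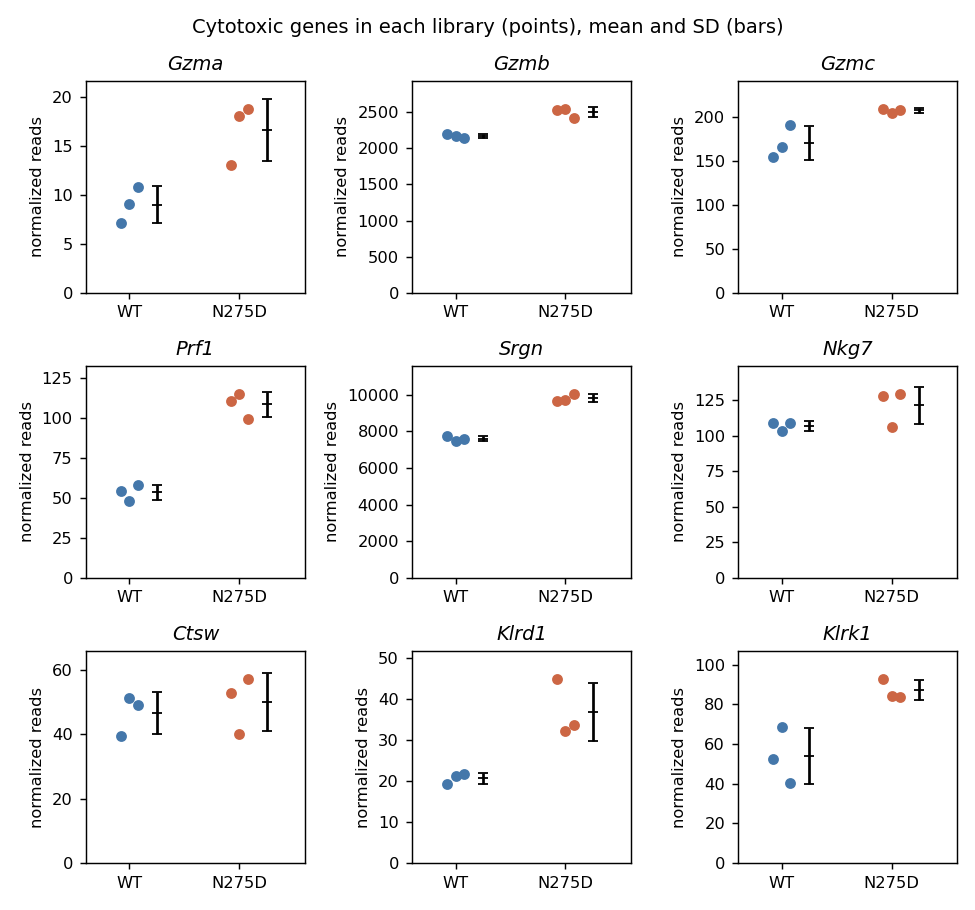
Normalized reads (vertical axes, linear and starting at 0, one scale per gene) of the 9 cytotoxic genes in each WT and RORγtN275D (N275D) library, shown as points, with the mean and SD of 3 libraries as bars. The genotypes were separated in 7 panels, and the points overlapped for Nkg7 and Ctsw.

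Perforin showed the largest change among the members. Prf1, the pore-forming protein of the granule (chr10:61297751-61304684, GRCm38), had 54.5, 48.4 and 58.0 normalized reads in the WT libraries and 111, 115 and 99.7 in the RORγtN275D libraries. Each RORγtN275D library was well above the highest WT library. The mean rose from 53.6 ± 4.83 (SD, n = 3) to 109 ± 8.03 (SD, n = 3), a log2 fold change of 1.01 (SE 0.13, 95% confidence interval 0.74 to 1.28) with an adjusted p of 7.65e-06 by limma. As a fold this was 2.01, with an interval of 1.67 to 2.42, and 97.3% of the genes tested had a lower log2 fold change. The call held in every alternative in which Prf1 was tested, which leaves out the filter at a mean of 100, but the value fell under 2-fold with a pseudocount of 10 (log2 fold change 0.90), with quantile normalization (0.83) and without WT replicate 2 (0.94), RORγtN275D replicate 1 (0.99) or RORγtN275D replicate 2 (0.96).

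Granzymes rose by smaller or less certain amounts. Gzmb, the protease that cuts after aspartate and activates caspases (chr14:56258836-56262334), was the most abundant of them, at 2194, 2173 and 2142 normalized reads in WT and 2539, 2551 and 2426 in RORγtN275D libraries. The genotypes did not overlap, and the gain was small beside the level itself. It amounted to 15.5% of the WT mean, or a log2 fold change of 0.21 (SE 0.04, adjusted p = 0.000443 by limma). Gzmc, a granzyme of the same gene cluster (chr14:56231397-56241647), had 154, 165 and 192 normalized reads in WT and 210, 205 and 208 in RORγtN275D libraries. Its WT libraries were spread over a wider range than its RORγtN275D libraries, and the highest WT library came close to the lowest RORγtN275D library. The mean rose from 170 ± 19.1 to 208 ± 2.59 (SD, n = 3), with a log2 fold change of 0.29 (SE 0.09) and an adjusted p of 0.0158 by limma. With quantile normalization (0.20, adjusted p = 0.0922) this was no longer called, and neither was it when WT replicate 1 was left out (0.22, adjusted p = 0.0772).

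Gzma, the tryptase of the family (chr13:113093824-113100981), was the least abundant member. Its libraries held 7.07, 9.08 and 10.8 normalized reads in WT and 13.0, 18.1 and 18.8 in RORγtN275D cells, which did not overlap although the WT mean of 8.98 lay under the filter of 10. It was tested because its mean over both genotypes passed, so that it owes its test to the RORγtN275D libraries. The log2 fold change was 0.82 (SE 0.30, 95% confidence interval 0.17 to 1.46, adjusted p = 0.0341 by limma). Divided by the inferred factors, its values came to 27 reads over the 3 WT libraries (95% exact Poisson interval 17.8 to 39.3) and 50 over the 3 RORγtN275D libraries (37.1 to 65.9), intervals that cover counting error only. The call was lost under 5 alternatives, namely quantile normalization (0.59, adjusted p = 0.118) and leaving out WT replicate 1 (0.67, adjusted p = 0.106), WT replicate 2 (0.83, adjusted p = 0.0582), RORγtN275D replicate 2 (0.75, adjusted p = 0.108) or RORγtN275D replicate 3 (0.73, adjusted p = 0.112).

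Other granzymes were near the limit of detection. Of 6 further family members, 4 were analysed and none reached a mean of 10. Gzmd was at 0, 0 and 0.982 normalized reads in WT and at 6.99, 9.03 and 4.94 in RORγtN275D libraries, and thus did not overlap. Gzme (1.01, 1.01 and 0 against 2.99, 1.00 and 3.95), Gzmf (7.07, 7.06 and 5.89 against 1.997, 7.02 and 4.94) and Gzmm (10.09, 11.1 and 10.8 against 4.99, 10.03 and 6.91) were likewise too low for the test, and of these Gzmm was lower in each RORγtN275D library than in any WT library. Granzyme genes resemble each other, so reads of one may be assigned to another. Of the 845 windows of 50 bases in Gzmc transcripts, 3.79% were identical to a window of Gzme, 2.49% to one of Gzmg and 0.355% to one of Gzmd, while Gzma and Gzmb shared no such window with the other granzymes searched.

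Serglycin (Srgn, chr10:62493833-62527445), which holds perforin and granzymes in the granule matrix, was the most abundant member. It had 7764, 7476 and 7574 normalized reads in WT and 9646, 9711 and 10052 in RORγtN275D libraries, and the gap between the genotypes was wider than the range within either. The mean rose by 28.9%, from 7605 ± 146 to 9803 ± 219 (SD, n = 3), with a log2 fold change of 0.37 (SE 0.03, 95% confidence interval 0.29 to 0.44) and an adjusted p of 2.62e-07 by limma. Serglycin is also made by many leukocytes that have no cytotoxic granules.

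Nkg7, a granule membrane protein needed for efficient degranulation (chr7:43437138-43438246), had 109, 103 and 109 normalized reads in WT and 128, 106 and 129 in RORγtN275D libraries. RORγtN275D replicate 2 fell within the WT range whereas replicates 1 and 3 lay above it. The log2 fold change of 0.17 had a 95% confidence interval of -0.06 to 0.41 and an adjusted p of 0.202 by limma, and the exact permutation test over the 6 libraries gave a two-sided p of 0.3. Ctsw, the cysteine protease cathepsin W of cytotoxic lymphocytes (chr19:5465043-5468628), had 39.4, 51.4 and 49.1 normalized reads in WT and 52.9, 40.1 and 57.3 in RORγtN275D libraries. Its genotypes were interleaved, the log2 fold change was 0.09 (95% confidence interval -0.28 to 0.46, adjusted p = 0.675 by limma), and the exact permutation p was 0.5. The interval leaves room for a moderate change in either direction, and the sign of the Ctsw difference turned with quantile normalization and without WT replicate 1 or RORγtN275D replicate 3.

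Both receptors were higher in RORγtN275D cells. Klrd1 (chr6:129588092-129598775) encodes CD94, which pairs with NKG2 chains, and had 19.2, 21.2 and 21.6 normalized reads in WT and 44.9, 32.1 and 33.6 in RORγtN275D libraries. RORγtN275D replicate 1 was the highest, and replicates 2 and 3 were still above all WT libraries. The mean rose from 20.7 ± 1.30 to 36.9 ± 7.02 (SD, n = 3), a log2 fold change of 0.79 (SE 0.21, adjusted p = 0.00438 by limma). Klrk1 (chr6:129610323-129623903) encodes NKG2D, a receptor for stress-induced ligands, and had 52.5, 68.6 and 40.3 normalized reads in WT and 92.8, 84.3 and 83.9 in RORγtN275D libraries. Here the WT libraries were more spread than the RORγtN275D libraries, with the highest WT library below the lowest RORγtN275D library. The mean rose from 53.8 ± 14.2 to 87.0 ± 5.05 (SD, n = 3), a log2 fold change of 0.72 (SE 0.17, adjusted p = 0.00204 by limma).

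**Figure D2:**
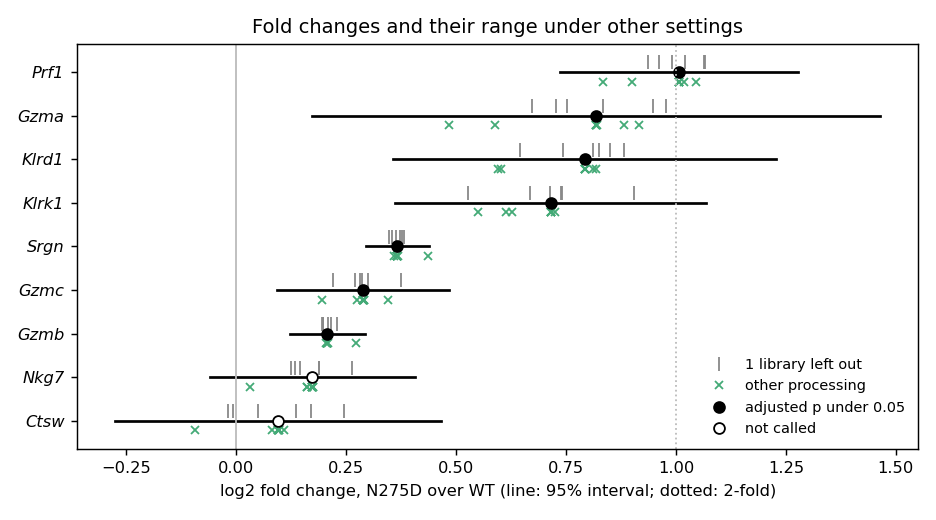
Log2 fold change of each cytotoxic gene, RORγtN275D minus WT, with its 95% confidence interval from limma, 3 libraries per genotype (circles, filled where called). Grey ticks are values with 1 library left out, green crosses those under other processing, and the dotted line marks 2-fold. All 9 estimates lie at or above 0.09, with the Ctsw estimate turning to -0.093 under quantile normalization, and the intervals of Nkg7 and Ctsw include 0.

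For every member whose genotypes did not overlap, the exact permutation test of 3 libraries against 3 gave a two-sided p of 0.1, which is the smallest that this design allows.

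Levels can be compared between genes only per length. Divided by the length of the annotated exons, Srgn stood at 4338 ± 83.5 normalized reads per kb in WT and 5592 ± 125 in RORγtN275D cells (SD, n = 3), followed by Gzmb at 1511 ± 18.2 and 1745 ± 47.8. Gzmc (191 ± 21.3 in WT) and Nkg7 (121 ± 4.02) came next. Ctsw (37.6 ± 5.16), Klrd1 (21.4 ± 1.34), Prf1 (20.8 ± 1.87), Klrk1 (15.7 ± 4.14) and Gzma (8.93 ± 1.86 normalized reads per kb in WT) followed. In WT cells the libraries of Klrd1 overlapped with those of Prf1 and those of Prf1 with those of Klrk1, so that their order is not resolved, while other neighbours in the order were separated. In RORγtN275D cells Prf1, at 42.0 ± 3.11, came directly after Nkg7 (138 ± 14.6) and overlapped with Ctsw (40.4 ± 7.18), which in turn overlapped with Klrd1 (38.2 ± 7.26).

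**Figure D3:**
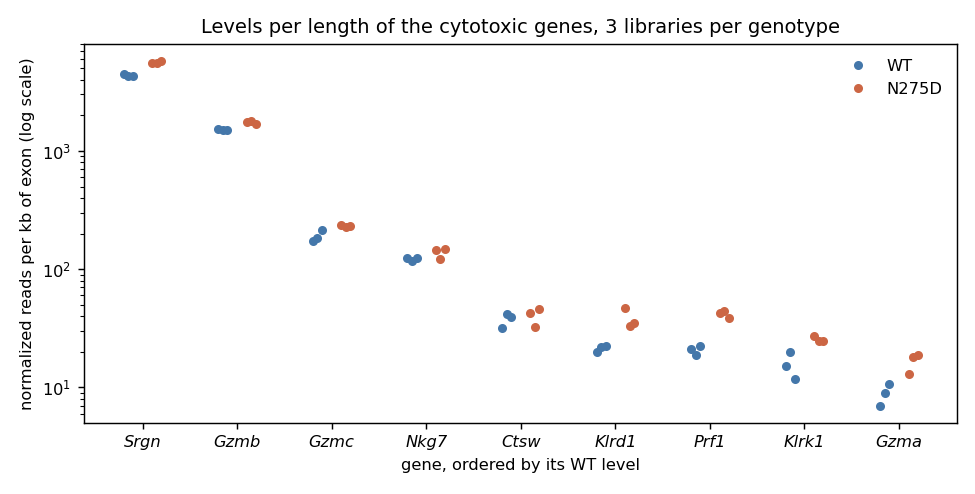
Normalized reads per kb of annotated exon (logarithmic axis) of the 9 cytotoxic genes in WT and RORγtN275D (N275D) libraries, ordered by level. Points are libraries. Srgn and Gzmb, with WT means of 4338 and 1511, lie far above the others, and Gzma is lowest.

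Ratios between granule transcripts were compared within each library. Per exon length, Prf1 stood at 1.37 ± 0.133 per 100 of Gzmb in WT and at 2.41 ± 0.115 in RORγtN275D libraries, without overlap. Srgn went from 287 ± 4.55 to 321 ± 16.1 per 100 of Gzmb, also without overlap, whereas Gzmc was at 12.6 ± 1.57 and 13.3 ± 0.456 per 100 of Gzmb. Among 7 ratios computed, the exact permutation p was 0.1 for Prf1 and Srgn (0.175 after Benjamini-Hochberg adjustment) and 0.5 for Gzmc, and no ratio of 3 libraries against 3 could pass 0.05.

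To show the sequence next to the members that changed, 4 promoters from RefSeq (GRCm38.p6) are printed 5′ to 3′, as far as they lie outside the annotated span of the gene. They were chosen for the largest change (Prf1, chr10:61297586-61297750 on the plus strand), the most abundant granzyme (Gzmb, chr14:56262335-56262584 on the minus strand), the least abundant one (Gzma, chr13:113100982-113101231 on the minus strand) and a receptor (Klrk1, chr6:129623904-129624114 on the minus strand). Capitals mark matches to any of 7 motifs, searched on both strands: the ROR element AGGTCA, the hypoxia element ACGTG, AP-1 TGANTCA, RUNX TGTGGT, T-box AGGTGT, STAT TTCNNNGAA and ETS GGAAGT.
Prf1: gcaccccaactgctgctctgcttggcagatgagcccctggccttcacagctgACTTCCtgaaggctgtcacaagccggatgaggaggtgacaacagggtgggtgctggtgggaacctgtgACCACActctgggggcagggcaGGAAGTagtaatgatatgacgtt
Gzmb: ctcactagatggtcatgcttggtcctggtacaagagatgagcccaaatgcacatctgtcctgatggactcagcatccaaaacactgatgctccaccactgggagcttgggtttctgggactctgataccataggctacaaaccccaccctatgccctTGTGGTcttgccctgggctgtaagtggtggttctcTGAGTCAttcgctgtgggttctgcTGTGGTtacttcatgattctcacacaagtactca
Gzma: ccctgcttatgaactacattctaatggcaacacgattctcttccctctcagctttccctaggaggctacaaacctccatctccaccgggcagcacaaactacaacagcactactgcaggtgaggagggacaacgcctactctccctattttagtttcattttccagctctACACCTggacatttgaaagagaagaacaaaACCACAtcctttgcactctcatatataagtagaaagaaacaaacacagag
Klrk1: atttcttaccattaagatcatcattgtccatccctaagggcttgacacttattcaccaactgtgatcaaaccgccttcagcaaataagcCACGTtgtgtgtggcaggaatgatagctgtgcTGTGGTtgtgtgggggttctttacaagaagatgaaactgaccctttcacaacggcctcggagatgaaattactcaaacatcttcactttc

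The RUNX letters occurred in the promoters of all 7 member genes with an entry, in 7 of 8 promoters of 300 bases because Srgn has 2, and in 16.8% of all 32851 mouse promoters of that length. The T-box letters occurred in 4 of the 8 (Nkg7, Prf1, Gzma and Gzmc; 13.7% of all promoters), ETS in 3 (Prf1, Srgn and Gzmc; 23.8%), and AP-1 (Klrk1 and Gzmb; 7.81%), STAT (Nkg7 and Gzmb; 8.30%) and the hypoxia element (Klrk1 and Srgn; 19.6%) in 2 each. The ROR element, the core half-site to which RORγt binds, was found in 1, the Gzmc promoter, 115 bases before the start site, and in 16.3% of all promoters. No matches in these promoters shared a base. Ctsw and Klrd1 were without an entry. A match of letters is a description and no evidence of binding, and Nkg7, which did not pass the test, held matches as well.

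Inhibitors that protect a cell from its own granzymes changed as well. Of 6 inhibitors of granzymes and cathepsins, 5 were tested, with 3 higher, 2 lower and a median log2 fold change of 0.35, and here as for the lists that follow the shares over all genes tested were 24.7% higher and 26.1% lower. Serpinb9, the intracellular inhibitor of granzyme B, had 446, 414 and 413 normalized reads in WT and 1079, 1083 and 1103 in RORγtN275D libraries (log2 fold change 1.36, SE 0.05, adjusted p = 1.20e-11 by limma). Serpinb6b, a related intracellular serpin, had 326, 375 and 313 in WT and 953, 963 and 901 in RORγtN275D libraries (1.47, SE 0.07, adjusted p = 6.18e-11). Every RORγtN275D library of either gene exceeded each WT library by a wide margin. Per 100 of Gzmb and per exon length, Serpinb9 stood at 8.03 ± 0.285 in WT and 17.9 ± 0.705 in RORγtN275D libraries, and Serpinb6b at 10.2 ± 0.959 and 24.5 ± 0.212 (exact permutation p = 0.1 for each, 0.175 adjusted). Serpinb6a rose as well (0.35, adjusted p = 5.87e-06), while Serpina3g (-0.50, adjusted p = 0.000621) and Cst7, which encodes cystatin F, an inhibitor of the cathepsins that process granzymes (-0.46, adjusted p = 1.41e-05), fell. The counts of this list were the same with TMM or quantile scaling and without any 1 library.

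Genes of granule maturation and exocytosis went in both directions. Of 18, 8 were higher, 5 lower and 5 not called, with a median log2 fold change of 0.07. Among granule membrane proteins, the tetraspanin Cd63 rose from 34.4 ± 3.57 to 71.4 ± 5.91 normalized reads (log2 fold change 1.04, adjusted p = 3.75e-05 by limma) whereas Lamp1, the protein used as a surface marker of degranulation, fell from 2842 ± 68.1 to 2198 ± 75.2 (-0.37, adjusted p = 2.00e-06). Among the cathepsins, Ctsc, which activates granzymes by removing their propeptide, fell from 2838 ± 185 to 2288 ± 94.7 (-0.31, adjusted p = 8.02e-05) and Ctsl rose (0.62, adjusted p = 5.45e-06). Of the small GTPase Rab27a and its effector Sytl2, which tether granules to the plasma membrane, Rab27a fell (-0.30, adjusted p = 0.000119) and the low Sytl2 rose from 14.3 ± 4.29 to 28.9 ± 1.499 (1.00, adjusted p = 0.00352). The adaptor subunit Ap3b1 rose (0.45, adjusted p = 1.54e-07), and the calcium-binding Calr (-0.07, adjusted p = 0.0757) and Lamp2 (-0.11, adjusted p = 0.0651) did not pass. The number higher was 5 without RORγtN275D replicate 1 or replicate 2, and the number lower was 3 with quantile normalization and without RORγtN275D replicate 3, while an untrended prior gave 5 higher and 3 lower.

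Of the genes for the NKG2 chains that pair with Klrd1, Klrc1 and Klrc3 were called higher and Klrc2 was too low for the test. Klrc1, the inhibitory NKG2A chain that forms a heterodimer with CD94, had 126, 142 and 127 normalized reads in WT and 300, 282 and 343 in RORγtN275D libraries (log2 fold change 1.22, SE 0.09, adjusted p = 2.55e-08 by limma). Klrc3 had 5.05, 5.04 and 5.89 in WT and 26.0, 23.1 and 32.6 in RORγtN275D libraries (2.15, SE 0.29, adjusted p = 1.60e-05). Both genes were separated by genotype in all 6 libraries, but the WT mean of Klrc3, 5.33, lay under the filter of 10, so that it was tested only through the RORγtN275D libraries. Klrc2, the activating NKG2C chain, was at 5.05, 2.02 and 3.93 against 9.98, 3.01 and 5.93, which overlapped. The Klrc genes are close relatives, so their low values are uncertain. Klrc1 stood at 311 ± 22.3 per 100 of Klrd1 in WT and 417 ± 86.1 in RORγtN275D libraries, per exon length (exact permutation p = 0.2, 0.28 adjusted). Hcst, the DAP10 adaptor of Klrk1, had 67.6, 49.4 and 73.7 normalized reads in WT and 66.9, 63.2 and 65.2 in RORγtN275D libraries (log2 fold change 0.05, 95% confidence interval -0.27 to 0.38, adjusted p = 0.798), and Klrk1 per 100 of Hcst was 11.6 ± 5.60 and 17.2 ± 0.646 (exact permutation p = 0.3, 0.35 adjusted). Tyrobp, the other adaptor, was at 0 in 5 libraries and at 1.997 in RORγtN275D replicate 1.

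Among all 28 natural killer receptors and adaptors listed, 25 were analysed and 7 passed the filter, with 2 higher (Klrc1 and Klrc3), 2 lower and 3 not called. Crtam, an adhesion molecule of cytotoxic CD4+ T cells, fell from 466 ± 28.95 to 284 ± 16.3 (log2 fold change -0.71, adjusted p = 6.87e-07 by limma), and Cd226 fell slightly (-0.20, adjusted p = 0.0209). The Cd226 call was lost with an untrended prior and without WT replicate 2, RORγtN275D replicate 1 or RORγtN275D replicate 2, leaving 1 lower. Of the ligands of these receptors, 5 of 6 were analysed and 2 tested, of which the NKG2D ligand Ulbp1 was lower (-0.23, adjusted p = 0.00808) and H2-T23, which encodes the CD94 ligand Qa-1, did not pass (0.03, adjusted p = 0.546).

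**Figure D4:**
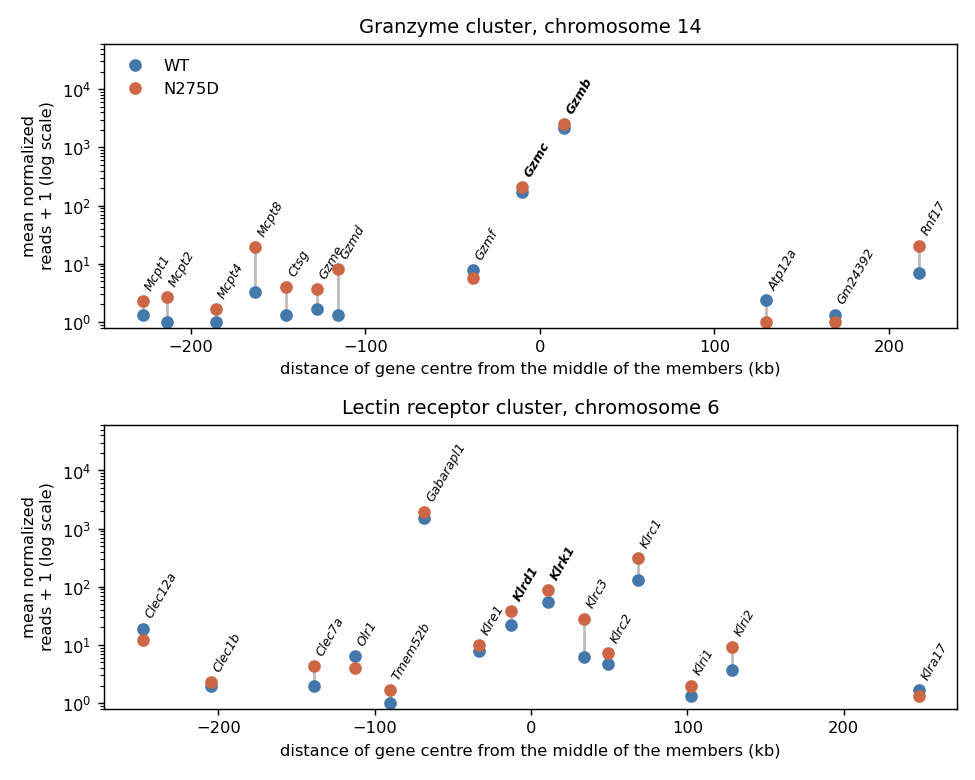
Mean normalized reads + 1 (logarithmic axis) of the analysed genes around Gzmb and Gzmc on chromosome 14 and around Klrd1 and Klrk1 on chromosome 6, in WT and RORγtN275D (N275D) cells, by distance of the gene centre in kb from the middle of the members, whose names are in bold. Gzmb, at a WT mean of 2170, stands far above the low genes of its cluster, and at the receptor cluster Klrc1 and Klrc3 lie higher in RORγtN275D cells.

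Klrc1 and Klrc3 also lie beside Klrk1 in the genome. Among the genes whose annotated span lies within 250 kb of a member, 95 were analysed and 54 tested, with 18 higher, 14 lower, 22 not called and a median log2 fold change of 0.04, beside 24.7% higher and 26.1% lower over all genes tested. Those higher included Klrc3, Mcpt8 and Rnf17, which passed the filter only through the RORγtN275D libraries. Those lower included Esm1 and Stox1, which passed it only through the WT libraries. At the Klrd1-Klrk1 locus, 4 neighbours were tested. Klrc3 (12.4 kb from Klrk1), Klrc1 (42.1 kb) and the autophagy gene Gabarapl1 (45.8 kb from Klrd1; log2 fold change 0.34, adjusted p = 4.61e-06 by limma) were higher, and Clec12a did not pass (-0.66, adjusted p = 0.0707).

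At the Gzmb-Gzmc locus 2 neighbours were tested, and both passed the filter of 10 only through the RORγtN275D libraries, so that their direction carries no weight. Mcpt8, a mast cell and basophil protease of the same gene family (146 kb from Gzmc), had 1.01, 3.03 and 2.95 normalized reads in WT and 21.0, 20.1 and 14.8 in RORγtN275D libraries, with a log2 fold change of 2.61 (SE 0.41, adjusted p = 6.95e-05 by limma). Rnf17 (140 kb from Gzmb) went from a mean of 6.01 to 19.6 (1.56, adjusted p = 0.000571). Other loci held changes in either direction, with Esm1 and Stox1 passing the filter only through the WT libraries. Near Prf1, Adamts14 (24.3 kb) went from 17.6 to 34.2 (0.95, adjusted p = 0.00608), near Gzma, Esm1 went from 16.3 to 5.31 (-1.47, adjusted p = 0.00148), and near Srgn, Stox1 went from 16.02 to 6.98 (-1.09, adjusted p = 0.0133) whereas the closest gene on each side, Vps26a (0.07, adjusted p = 0.411) and Kifbp (0.18, adjusted p = 0.0201), moved little. Around Nkg7, Etfb (0.19, adjusted p = 0.0233) and Siglecg (0.76, adjusted p = 0.0206) were higher. Around Ctsw, Fosl1 fell (-0.83, adjusted p = 8.97e-07), Efemp2 rose (0.75, adjusted p = 0.000115) and Fibp, whose annotated end overlaps with that of Ctsw, did not pass (0.10, adjusted p = 0.329). Gzma lies within the annotated span of Cdc20b, which had means of 0.327 and 2.66 normalized reads, and since the strand setting of the counting was not given, overlapping genes cannot be fully separated.

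Death ligands are the second route of killing. Of 8 death ligands and receptors, none was called higher, 4 were lower and 4 were not called, with a median log2 fold change of -0.22, and over all genes tested the share called in either direction was 50.9%. Tnf fell from 1940 ± 38.8 to 978 ± 4.86 normalized reads (log2 fold change -0.99, SE 0.04, adjusted p = 3.09e-11 by limma), and the related cytokine Lta (-0.38, adjusted p = 0.000245), the death receptor Fas (-0.69, adjusted p = 1.19e-06) and the TRAIL receptor Tnfrsf10b (-0.61, adjusted p = 1.29e-07) fell with it. Fasl, the ligand of Fas, was low and had 17.3 ± 0.753 in WT and 16.6 ± 2.91 in RORγtN275D cells (-0.07, 95% confidence interval -0.60 to 0.46, adjusted p = 0.836). Ltb (-0.06, adjusted p = 0.442) and Tnfsf10, which encodes TRAIL (-0.03, adjusted p = 0.861), did not pass.

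**Figure D5:**
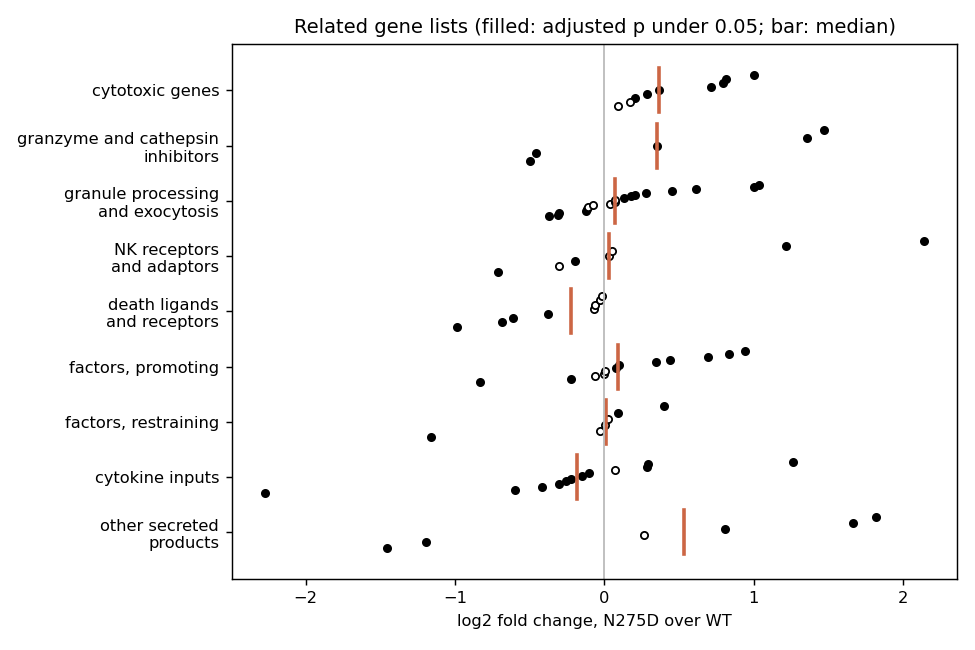
Log2 fold change, RORγtN275D minus WT, of the tested genes in each list related to cytotoxic function (points, filled where the adjusted p by limma was under 0.05) with the median of the list (bar). The cytotoxic genes lie above 0 (Ctsw below it with quantile normalization), the called death ligands and receptors below it, and the other lists spread to both sides.

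Transcription factors of the cytotoxic programme went in both directions. Of 13, 12 were analysed and tested, with 7 higher, 2 lower and 3 not called, and a median log2 fold change of 0.09. Eomes, the T-box factor of cytotoxic lymphocytes, had 61.6, 59.5 and 48.1 normalized reads in WT and 102, 94.3 and 79.0 in RORγtN275D libraries (log2 fold change 0.69, SE 0.14, adjusted p = 0.000803 by limma), and the libraries did not overlap. Its relative Tbx21, which encodes T-bet, fell (-0.83, adjusted p = 5.19e-08). Zeb2, a transcription factor of terminal effector cells, rose from 394 ± 8.26 to 758 ± 21.1 (0.94, adjusted p = 1.42e-09), as did Stat4 (0.84, adjusted p = 1.70e-09) and Nfil3 (0.35, adjusted p = 1.09e-05). Runx3 had 2521 ± 313 in WT and 2404 ± 62.0 in RORγtN275D cells (-0.06, 95% confidence interval -0.20 to 0.07, adjusted p = 0.442), and Id2 had a difference of 0.00 (adjusted p = 0.954). The number higher fell to 4 without WT replicate 2 or RORγtN275D replicate 2.

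Of 6 factors that restrain the programme, 2 were higher, 1 lower and 3 not called. Id3 fell (log2 fold change -1.16, adjusted p = 9.02e-12 by limma), Foxo1 rose (0.40, adjusted p = 5.89e-06), and Tcf7 (0.00, adjusted p = 0.976) and Zbtb7b, which encodes the CD4 lineage factor ThPOK (-0.03, adjusted p = 0.680), did not pass. The call of the other one, Bach2 (0.10, adjusted p = 0.0437), was lost, leaving 1 higher, without WT replicate 1 or 2 and without RORγtN275D replicate 1, 2 or 3. The same happened with all genes above 0, with an untrended prior and with the replicate number as a block.

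Cytokines and receptors that act upstream of granzymes went in both directions. Of 12, 3 were higher, 8 lower and 1 not called, with a median log2 fold change of -0.18, beside 24.7% higher and 26.1% lower over all genes tested. The number lower was 6 with the replicate number as a block, with an untrended prior, and without RORγtN275D replicate 1 or 2. Il12rb2, the inducible chain of the IL-12 receptor, rose from 1162 ± 17.1 to 2790 ± 31.4 normalized reads (log2 fold change 1.26, SE 0.04, adjusted p = 9.25e-13 by limma), and the IL-2 receptor chains Il2ra (0.30, adjusted p = 1.61e-06) and Il2rb (0.29, adjusted p = 1.37e-05) rose by less. The remaining chain of each receptor was lower, Il12rb1 (-0.30, adjusted p = 1.67e-05) for IL-12 and Il2rg (-0.22, adjusted p = 0.000125) for IL-2. Il2 itself, a cytokine that induces granzymes and perforin, fell (-2.27, adjusted p = 3.32e-16), and so did Il21 (-0.60, adjusted p = 4.51e-08) and Il27ra (-0.42, adjusted p = 4.65e-06). Of 6 other secreted products of cytotoxic cells, 3 were higher, 2 lower and 1 not called, with a median log2 fold change of 0.54. Fgl2 rose from 21.96 ± 3.98 to 71.4 ± 7.56 (1.67, adjusted p = 1.39e-06), Ccl5 (1.82, adjusted p = 2.35e-08) and Ifng (0.81, adjusted p = 3.54e-05) rose too, Ccl3 (-1.46, adjusted p = 5.35e-12) and Ccl4 (-1.19, adjusted p = 2.64e-09) fell, and Xcl1 did not pass (0.26, adjusted p = 0.509).

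Markers of other cells that carry cytotoxic genes were low and some were higher in RORγtN275D libraries. The CD8 markers Cd8a and Cd8b1 summed to 118 to 142 normalized reads in WT and 172 to 179 in RORγtN275D libraries. This difference lay in Cd8b1 (98.9 ± 5.69 and 148 ± 1.19, log2 fold change 0.58, adjusted p = 0.000145 by limma), whereas Cd8a had 32.6 ± 6.70 and 27.6 ± 2.67 (-0.22, adjusted p = 0.401). Cd4 stood at 9143 ± 331 and 7591 ± 26.1. Of 7 natural killer markers, 5 were analysed and summed to 58.9 to 74.7 in WT and 97.8 to 123 in RORγtN275D libraries, and without Eomes, which T cells also express, the remaining 4 summed to 8.07 to 13.1 and 13.0 to 21.0. Of these defining markers, Klrb1c, which encodes NK1.1, was at 2.02, 1.01 and 0 in WT and at 0 in all 3 RORγtN275D libraries, and Klra4 was at 0 in 5 of 6. Klri2 was at 2.02, 2.02 and 3.93 in WT and at 11.0, 5.02 and 8.89 in RORγtN275D libraries, without overlap, and Klre1 at 9.08, 5.04 and 6.88 against 8.98, 8.03 and 9.88, which overlapped. Ncr1 and Klra8 were not analysed here.

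Of the gamma delta T cell markers, 1 of 5 was analysed, Sox13, at 18.2 to 31.4 normalized reads in WT and 35.1 to 38.5 in RORγtN275D libraries (log2 fold change 0.64), and its call was lost with quantile normalization, without WT replicate 1 or 2 and without RORγtN275D replicate 1 or 3. The 6 markers of mast cells and basophils summed to 25.5 to 42.4 in WT and 61.9 to 83.3 in RORγtN275D libraries, with 1 of 2 tested genes higher (Mcpt8). As said for its locus, Mcpt8 passed the filter only through the RORγtN275D libraries, so that its direction carries no weight. Kit did not pass (0.59, adjusted p = 0.0548 by limma) but was called with the replicate number as a block and without WT replicate 2 or RORγtN275D replicate 1. Among the mast cell genes too low for the test, Cpa3 was at 0, 0 and 2.95 in WT and at 3.99, 3.01 and 11.9 in RORγtN275D libraries, without overlap, and Mcpt4 and Tpsb2 were each at 0 in 5 libraries. Of the B cell markers, Cd79a had 16.3 ± 4.69 in WT and 31.6 ± 3.96 in RORγtN275D cells (log2 fold change 0.94, adjusted p = 0.00475 by limma), Pax5 had 67.0 ± 4.19 and 91.0 ± 17.3 (0.42, adjusted p = 0.0228), and Cd79b did not pass (0.53, adjusted p = 0.0637). Ms4a1, too low for the test, was at 1.01, 0 and 0 in WT and at 3.99, 4.01 and 9.88 in RORγtN275D libraries, without overlap. The Pax5 call was lost with quantile normalization, with all genes above 0, with an untrended prior and without WT replicate 2 or RORγtN275D replicate 2 or 3. The 6 myeloid markers summed to 89.8 to 108 and 105 to 130, with 1 higher, 1 lower and 1 not called. The lower one, Adgre1 (means of 22.6 and 6.64), passed the filter only through the WT libraries. Of those too low for the test, Lyz2 was at 6.06, 3.03 and 4.91 in WT and at 8.98, 7.02 and 7.90 in RORγtN275D libraries, without overlap. Csf1r (2.02, 1.01 and 0 against 3.99, 3.01 and 1.98) and Itgam (11.1, 10.1 and 8.84 against 9.98, 7.02 and 12.8) overlapped. The part of such cells in the higher levels of Prf1, Gzma, Klrd1, Klrk1 and the Klrc genes was not tested.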

How the data were processed

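RNA-seq libraries of WT and RORγtN275D Th17 cells (3 each) were grouped and numbered from their labels. According to the methods, the authors sequenced strand-specific mRNA libraries, aligned reads to mm10 with STAR, counted them per gene with featureCounts and compared genotypes with DESeq2; versions and the strand setting of the counting are not given in the sources used here. The labels name a poly-A directional kit. The deposited signal values are normalized read counts, in which 100% of values were whole multiples of 1 factor per library within 1e-06. The deposited table also holds the authors' log2 fold changes, q-values and group averages, and other annotation columns, none of which was used. Columns of per-sample values left unused numbered 0.

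Values were analysed as log2(normalized reads + 1) with limma (version 3.58.1, R 4.3.3), a trended eBayes prior (12.0 degrees of freedom), no block and Benjamini-Hochberg adjustment over 11908 genes whose mean reached 10, and called at an adjusted p under 0.05. The test was checked on simulated data. For the single members and for the ratios between genes, exact two-sided permutation tests were also used. Levels per kb used exon lengths of GENCODE M21; coordinates, neighbours within 250 kb and promoters (250 bases before to 50 after a start) came from RefSeq on GRCm38.p6. The members and lists were chosen with earlier results of these data known. Some genes of the marker lists are not reported here. Named from each list were genes called past 2-fold, up to 4 further called genes with the largest changes and up to 2 uncalled genes with the highest mean, and of the neighbours those past 2-fold and the closest ones; additional genes were named after their values were seen. Alternatives were quantile or TMM scaling, pseudocounts of 0.1 and 10, means above 0 or from 100 as filters, an untrended eBayes prior, weights per library, the replicate block, a 2-fold minimum and omission of single libraries.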

Additional observations from a re-analysis of the deposited data

How the results depend on the processing

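Over 130 alternative values of the 9 members, 127 were positive, and 120 kept both the direction and the side of the threshold. Gzmb (log2 fold change 0.19 to 0.27), Prf1 (0.83 to 1.07), Srgn (0.35 to 0.44), Klrd1 (0.59 to 0.88) and Klrk1 (0.53 to 0.90) kept their calls in every alternative that changed the values, scaling, filter, fit or libraries and in which they were tested, but of these Prf1 alone passed a 2-fold minimum, Gzma and Gzmc lost theirs as given with their values, and Nkg7 (0.03 to 0.26, adjusted p of 0.0796 or more) was never called. Ctsw reversed with quantile normalization (-0.093, adjusted p = 0.680), without WT replicate 1 (-0.020) and without RORγtN275D replicate 3 (-0.0077), and ranged from -0.020 to 0.244 over the single libraries left out. Of the members, 7 were called in the reported fit, 5 with quantile normalization, 5 to 7 when 1 library was left out, 1 with a 2-fold minimum, and 3 with a mean of at least 100, where 4 members could be tested. Over all genes, 6056 were called, 5162 to 6396 when 1 library was left out, and 427 with the 2-fold minimum, a number that became 259 with a pseudocount of 10, 703 with all genes above 0 and 162 with a mean of at least 100. The counts with TMM (6066 genes, 7 members), without a trend (5323, 7) and with library weights (6586, 7) were close to these. No shared deviation of same-numbered libraries was seen, with correlations of -0.045, 0.041 and -0.083, which cannot exclude that they were processed in pairs. With the replicate number as a block 5727 genes and 7 members were called. The edgeR and DESeq2 tests planned on recovered reads were not run. All values were whole multiples of the inferred factors, but in 4 libraries the factor is so close to 1 that an independent check did not accept the recovery, and the log-scale test was kept as the only one. With 3 libraries per genotype and 7.07 to 18.8 normalized reads for Gzma, differences of the lowest genes are uncertain.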

Other observations

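Some low genes outside the comparisons of the members also separated the genotypes. Fcer1g, an adaptor of natural killer and mast cell receptors, had 2.02, 3.03 and 4.91 normalized reads in WT and 6.99, 9.03 and 7.90 in RORγtN275D libraries, and Klri2, a natural killer receptor gene of the Klrd1 region, had 2.02, 2.02 and 3.93 against 11.0, 5.02 and 8.89. Serpinb9b, a relative of Serpinb9, had 3.03, 5.04 and 8.84 against 11.98, 16.1 and 11.9. All 3 genes were under the filter and were not tested, and Klri2 is one of the natural killer markers described with the cell type markers. They were named because their libraries did not overlap, whereas most of the untested natural killer receptor genes overlapped. Over all genes tested, which had a mean of at least 10, the RORγtN275D libraries all lay above the WT libraries in 28.1% and below them in 29.6%. These shares leave out genes under the filter, for which no share was computed.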
